A study of Homo sapiens with 2 samples.

Results

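The internal transcribed spacers ITS1 and ITS2 and the 3′ external transcribed spacer (3′ETS) of human pre-rRNA were examined for reads recovered with the Ku complex. They were followed as 10-base bins of the rDNA repeat, taken by the region name that each bin carries, which gave 108 bins for ITS1, 117 for ITS2 and 37 for the 3′ETS. These 262 bins are part of the 4482 bins of the repeat that were listed for both libraries. Bases are counted along the repeat from the start of the 5′ETS, so that ITS1 spans bases 5521 to 6600, ITS2 bases 6751 to 7920 and the 3′ETS bases 12971 to 13340. These are positions in 1 copy of a repeat that lies in tandem arrays on the short arms of the acrocentric chromosomes, and not positions on a chromosome.

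The reads come from PAR-CLIP of HEK293T, an established human embryonic kidney cell line with the SV40 large T antigen. The library labelled SFB-Ku80 (the Ku80 library) came from cells that the labels describe as stable expressers of Ku80, the larger subunit of the Ku heterodimer, with streptavidin-binding and FLAG tags. The library labelled SFB empty vector (the vector library) came from cells carrying the empty vector in the same way. The study's methods name a construct for transient transfection of Ku80, and which of these forms was used for the purification was not settled here. Both cultures received 0.1 mM of the photoreactive nucleoside 6SG overnight and 0.4 J/cm2 of UV at 365 nm, and both lysates went over streptavidin resin and then FLAG resin. In this method UV links a protein to the RNA it touches in living cells, and the RNA that stays with the protein through the purification is sequenced. The labels name no loss of the Ku80 that the cells make themselves, and whether each line is 1 clone is not given in the sources used here. The identity of the cells was not checked against marker genes here.

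Pre-rRNA is made by RNA polymerase I in the nucleolus as 1 long transcript that holds 18S, 5.8S and 28S rRNA. ITS1 separates 18S from 5.8S, ITS2 separates 5.8S from 28S, and the 3′ETS follows 28S at the end of the transcript. Endonucleases cut within the spacers and exonucleases trim what is left, and cutting in ITS1 parts the precursor of the small ribosomal subunit from that of the large one. The spacers are absent from finished ribosomes, so reads on them come from precursors or from fragments cut out of them, while reads on 18S, 5.8S and 28S can also come from mature rRNA.

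The vector library had 29863974 read pairs and the Ku80 library had 22173753, and each bin count was divided by the read pairs of its library. STAR, which mapped the pairs to the genome in a separate step, left 21.5% unmapped in the vector library and 47.1% in the Ku80 library. With 1 library per condition, the differences have no replicate check and no test between the conditions was possible. Intervals are 95% exact binomial intervals for the ratio of a single bin and cover counting error only. They are too narrow even for that, since reads copied by PCR and both reads of a pair are not independent molecules. Neighbouring bins share reads, because a read is counted in each bin it covers. In these bulk libraries fewer cells and less RNA per cell cannot be told apart, nor can either be told from the amount of RNA purified.

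All 262 spacer bins had more signal per read pair in the library from tagged Ku80 than in that from the vector. The first bin of the 3′ETS was the exception under other denominators, with a ratio of 0.746 against the summed signal of the rDNA repeat and 0.930 against the signal over 28S. At least 2-fold more was reached in 261 of them, or 99.6%, against 23.0% of all bins of the repeat and 71.8% of the bins of the 45S transcript. At least 3-fold more was reached in 260, against 16.6% and 51.3%. Reaching 2-fold was not particular to these spacers, as 100% of the bins of the 5′ETS, 18S and 5.8S also did. The share was 25.7% in 28S and 2.26% in the intergenic spacer, where 1329 of the 3148 bins had enough reads for a ratio. Bins without a ratio stay in these shares and in those of all bins of the repeat. At 3-fold the share was 100% in the 5′ETS and 5.8S, 17.2% in 18S and 2.38% in 28S. The spacers were also covered in the control, with 18 to 31483 reads per bin in the vector library and 105 to 96946 in the Ku80 library, and no spacer bin was empty in either library. The single bin under 2-fold was the first of the 3′ETS, next to 28S, at 1.71 (1.63 to 1.79), and the single bin between 2- and 3-fold was the last of ITS1, next to 5.8S, at 2.56 (2.49 to 2.64). Both lie directly at a border with mature rRNA.

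**Figure D1:**
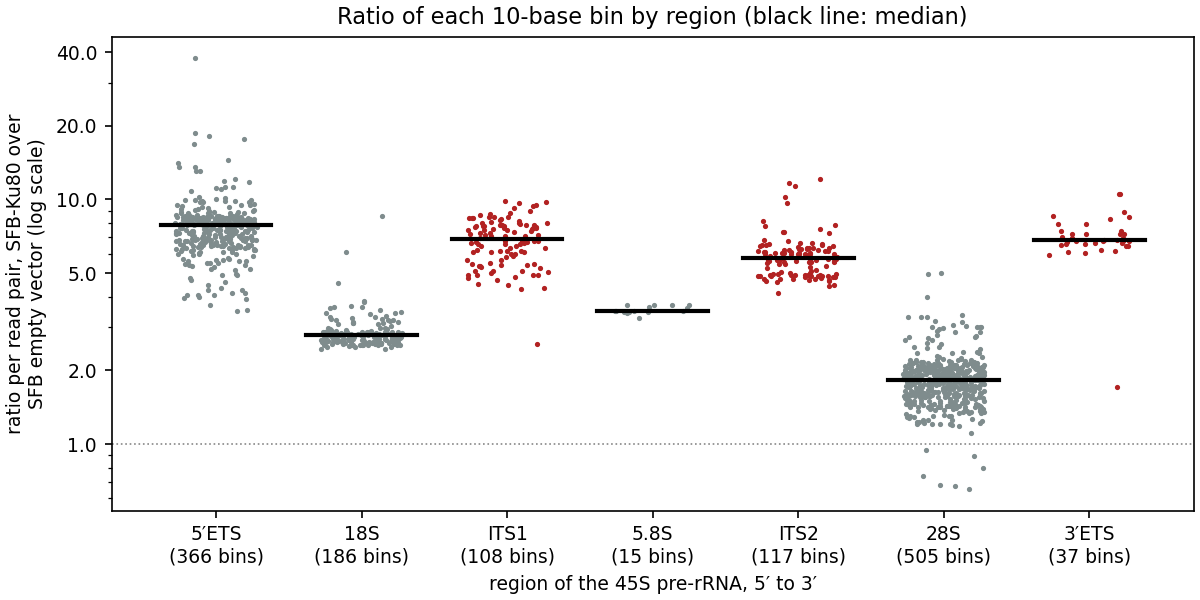
Ratio of the Ku80 library to the vector library per read pair (log scale) for every 10-base bin of the 45S pre-rRNA, by region from 5′ to 3′, with the median as a black line, spacer bins of ITS1, ITS2 and 3′ETS in red, and 1 bin of the 5′ETS with no read in the vector library drawn against 3 counts. The medians of ITS1, ITS2 and 3′ETS lie at 6.86, 5.76 and 6.82, above those of 18S, 5.8S and 28S, and the red point at 1.71 is the first bin of the 3′ETS.

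The 3 spacers differed more in how much signal they held than in their ratios. ITS2 was the strongest, with a mean bin of 787 reads per 1000000 read pairs in the Ku80 library and 136 in the vector library. ITS1 followed with 392 and 54.8, and the 3′ETS was far lower with 38.7 and 7.95. The order was the same in both libraries. The mean bin of ITS1 was 49.9% of that of ITS2 in the Ku80 library and 40.3% in the vector library, and that of the 3′ETS was 4.92% and 5.85%.

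Set against mature rRNA of the same library, the spacers made up a small part in both. The mean bin of ITS1 had 3.06% of the level of 18S in the Ku80 library and 1.19% in the vector library, which needs no scaling between libraries. Against 5.8S, its other neighbour, ITS1 had 2.71% and 1.35%. For ITS2 against 28S the values were 12.2% and 3.87%, and against 5.8S 5.44% and 3.34%. For the 3′ETS against 28S they were 0.601% and 0.226%. Each spacer thus stood higher relative to its mature neighbours in the Ku80 purification. The factor was 2.57 for ITS1 against 18S and 2.01 against 5.8S, 1.63 for ITS2 against 5.8S and 3.16 against 28S, and 2.65 for the 3′ETS against 28S. Of the signal on the whole 45S transcript, ITS1 held 0.672% in the Ku80 library and 0.215% in the vector library, ITS2 1.46% and 0.577%, and the 3′ETS 0.0227% and 0.0107%.

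As sums over all bins, the ratios per read pair were 7.16 for ITS1, 5.79 for ITS2 and 4.87 for the 3′ETS, but the last of these rested on its first bin. That bin had 4287 reads in the Ku80 library and 3384 in the vector library, while the next had 1362 and 297. Without the first bin the ratio of the 3′ETS was 6.85, close to the median of its bins, 6.82. With 150 bases at either end left out it was 7.39, from 7 bins. The low place of the 3′ETS in the order of the sums therefore came from 10 bases beside 28S. The size of the ratios hung on the denominator. Against the summed signal of the rDNA repeat they were 3.13 for ITS1, 2.53 for ITS2 and 2.13 for the 3′ETS, and per mapped read pair they were 10.6, 8.60 and 7.22.

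The middle 90% of the bins, from the 5th to the 95th percentile, ran from 4.72 to 9.13 in ITS1, from 4.67 to 7.91 in ITS2 and from 6.02 to 9.21 in the 3′ETS. These ranges overlapped each other. They lay above those of 18S, at 2.54 to 3.50, and 28S, at 1.29 to 2.65. The 5′ETS, the spacer at the start of the transcript, had a range of 4.90 to 10.7, and 71.3% of its bins were at or above the median of ITS1. Of the 186 bins of 18S, 1 reached the median of ITS1, and none of the 505 bins of 28S or the 15 bins of 5.8S did. These spreads are between bins of the same libraries, and no test of the regions was made.

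**Figure D2:**
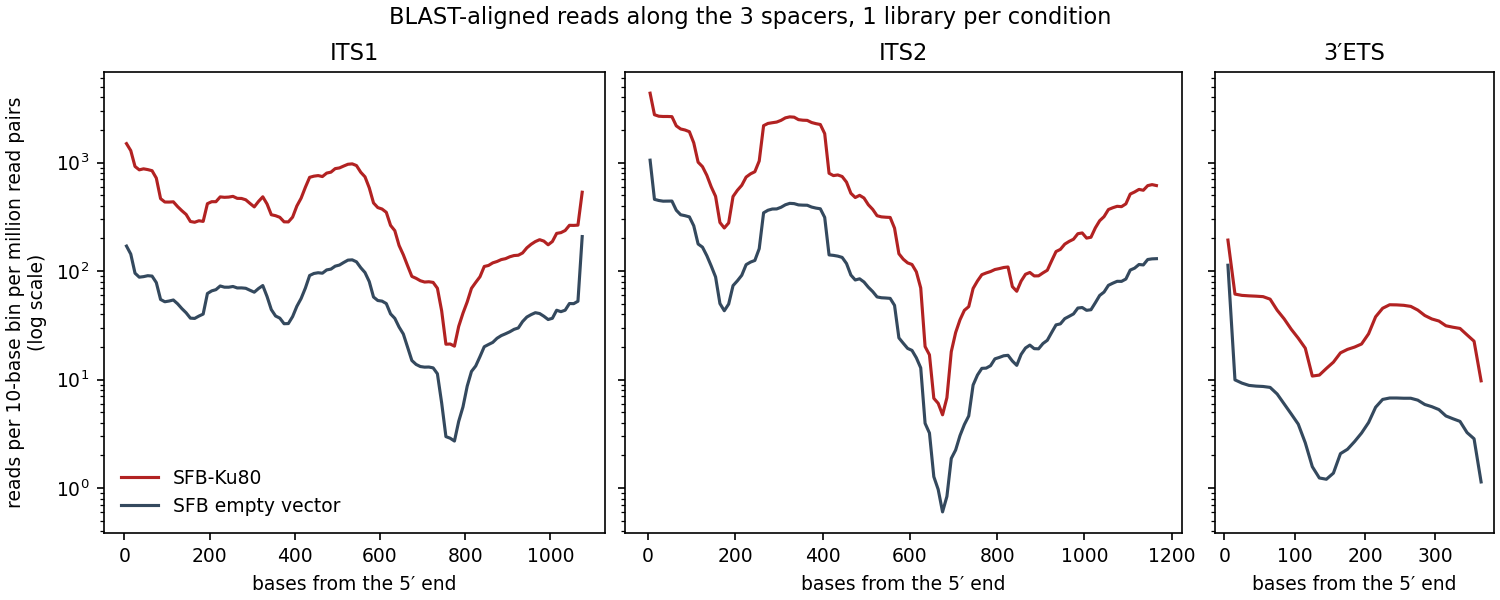
Reads per 10-base bin, scaled to 1000000 read pairs (log scale), against the distance in bases from the 5′ end of ITS1, ITS2 and 3′ETS, for the Ku80 library in red and the vector library in blue-grey, 1 library each. The lines run nearly parallel, with shared peaks and with shared troughs late in ITS1 and past the middle of ITS2.

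Along ITS1 the signal of both libraries had a high 5′ end, a broad peak near the middle and a deep trough in the last part. The highest bin of the Ku80 library was the first, at bases 5521 to 5530, with 33225 reads in the Ku80 library and 5082 in the vector library. Away from the ends, the peak lay at bases 6051 to 6060 in both libraries, with 21622 and 3795 reads. The trough lay at bases 6291 to 6300 in both, with 451 and 81 reads. The highest bin of the vector library was the last, beside 5.8S, with 6221 reads against 11841 in the Ku80 library.

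The ratio of ITS1 was highest at its 5′ end and lowest at its 3′ end, with a second rise between them. In consecutive windows of 100 bases it was 9.21 in the first, 7.69 in the second and 6.63 in the one after. It was 7.34, 7.99 and 7.62 in the next 3 windows, then 6.38, 6.50, 5.34 and 4.65, and 4.17 in the last window of 80 bases. Cut into 3 parts of 36 bins, ITS1 had a ratio of 7.86 in the 5′ part, 7.64 in the middle part and 4.63 in the 3′ part. Of the 36 bins of the 3′ part, 28 had a ratio below every bin of the 5′ part, and the others overlapped it. With 150 bases at either end of ITS1 left out, the 3 parts of what remained had ratios of 7.03, 7.61 and 5.53, so the 3′ part was still the lowest.

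The bins of ITS1 with a ratio of at least 9 were 6 in a row, at bases 5541 to 5600, with 15989 to 20463 reads in the Ku80 library and 2341 to 2859 in the vector library. The highest of them, at bases 5561 to 5570, had 19458 and 2657 reads and a ratio of 9.86 (9.47 to 10.3). They start 20 bases past the 18S border. The threshold of 9 was set after the values had been seen. Ratios this high were not particular to ITS1, as the 95th percentile of the bins of the 5′ETS was 10.7.

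The signal of ITS1 was placed further 5′ in the Ku80 library. The first 100 bases held 20.7% of the ITS1 signal in the Ku80 library and 16.1% in the vector library. The 3′ part of 36 bins held 12.2% and 18.9%. The signal-weighted centre of ITS1 lay 399 bases from its 5′ end in the Ku80 library and 455 bases in the vector library.

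**Figure D3:**
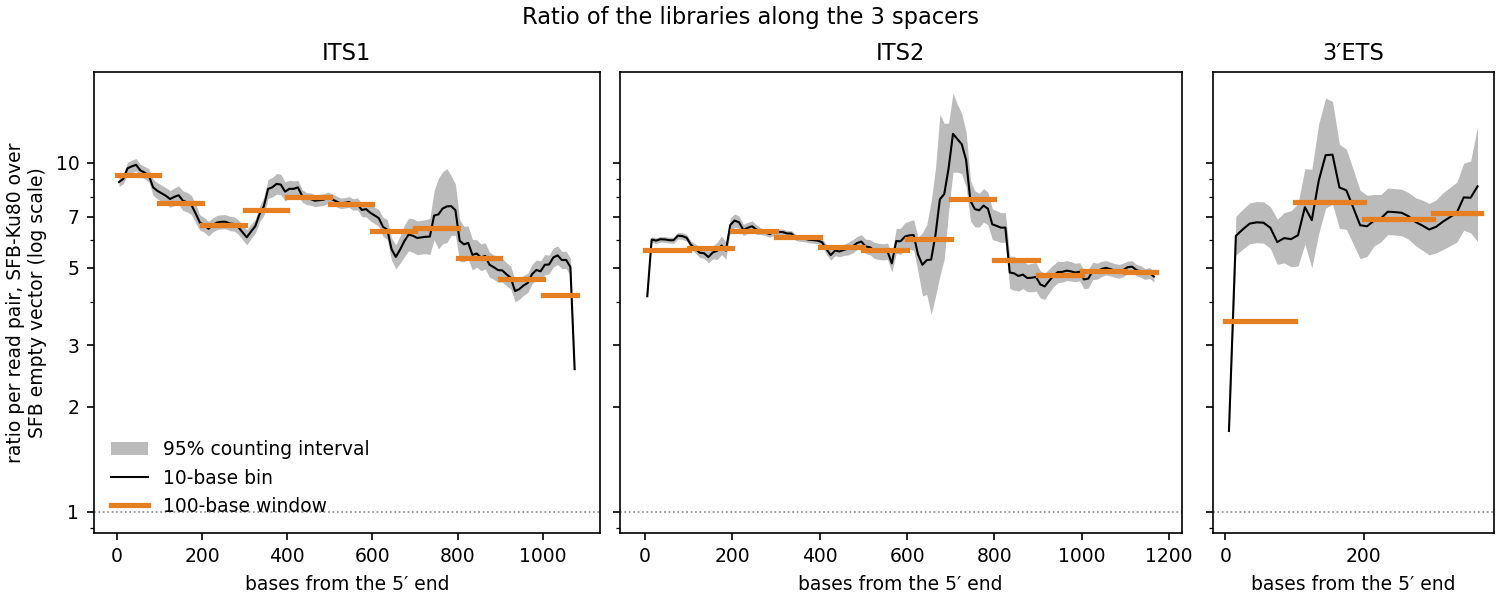
Ratio of the Ku80 library to the vector library per read pair (log scale) against the distance in bases from the 5′ end of each spacer, per 10-base bin (black, with the 95% counting interval in grey) and per 100-base window (orange). The ratio runs from 9.21 in the first to 4.17 in the last window of ITS1, rises to 12.1 in a stretch of few reads past the middle of ITS2, and is at 1.71 in the first bin of the 3′ETS.

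ITS2 carried most of its signal in its 5′ part, in 2 blocks. The first adjoined 5.8S and the second peaked at bases 7071 to 7080, with 58649 reads in the Ku80 library and 12591 in the vector library. The 5′ part of ITS2, its first 39 bins, held 74.6% of the ITS2 signal in the Ku80 library and 72.8% in the vector library. The strongest bins, with 50% of the signal, numbered 18 of the 117 in each library. Past the middle of ITS2 lay a deep trough, and its lowest bin, at bases 7421 to 7430, had 105 reads in the Ku80 library and 18 in the vector library. From there the signal rose again up to 28S, to 13642 and 3891 reads in the last bin of ITS2.

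The ratio along ITS2 was nearly flat over its 5′ 600 bases, where the 6 windows lay between 5.62 and 6.39. It was 6.05 in the window that holds the trough and 7.89 in the window after it, at bases 7451 to 7550. The highest ratio of the 262 spacer bins lay there, at bases 7451 to 7460, with 602 reads in the Ku80 library and 67 in the vector library and a ratio of 12.1 (9.39 to 15.8). A ratio of at least 9, the threshold set after the values had been seen, was reached by 5 bins in a row, at bases 7441 to 7490. The highest of the other bins of ITS2 was at 8.13, and the 95th percentile of the 5′ETS was at 10.7. Few reads lie behind the rise at these 5 bins of ITS2, with 56 to 138 per bin in the vector library. Its bins share reads, so that it is a single stretch and not 5 separate observations.

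The 3′ 370 bases of ITS2 had lower ratios, 5.26 in the window from base 7551 and between 4.78 and 4.89 in the 3 windows after it. Cut into 3 parts of 39 bins, ITS2 had ratios of 5.94, 5.82 and 4.93. Of the 39 bins of its 3′ part, 34 were below every bin of the 5′ part other than the very first, which is the one at 5.8S with 4.15 (4.09 to 4.20). Both internal spacers had their lowest ratio in the 3′ part, toward the large-subunit rRNA that follows, and the drop from the 5′ to the 3′ part was larger in ITS1.

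The 3′ETS was the least covered spacer. After its first bin the signal lay level for 60 bases, at 1223 to 1362 reads in the Ku80 library and 253 to 297 in the vector library. It then fell to 239 reads at bases 13091 to 13100 in the Ku80 library and to 36 at bases 13111 to 13120 in the vector library. A second rise followed, up to 1086 and 202 reads at bases 13201 to 13210, and the last bin, at bases 13331 to 13340, had 216 and 34. The window from base 13071 had a ratio of 7.70, the next 6.91 and the last, of 70 bases, 7.19. The highest ratio of the 3′ETS, at bases 13121 to 13130, was 10.5 (7.60 to 15.0), with 321 and 41 reads, next to this trough.

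The borders with mature rRNA were read out as the 10 bins on either side. From 18S into ITS1, the mean level fell to 8.46% of that of the 18S side in the Ku80 library and to 2.44% in the vector library. The ratio went from 2.66 on the 18S side to 9.21 on the ITS1 side, 3.46-fold. By these means it was the largest step among the borders of the 3 spacers with mature rRNA. That rank depends on the first bin of the 3′ETS, at 1.71. With it, the step from 28S into the 3′ETS was 2.09-fold, and the ranking was not repeated without it. The change did not coincide with the border in the bin names. The ratio was 2.61 at bases 5481 to 5490, 3.18 in the next bin, 6.08 at bases 5501 to 5510 and 8.59 in the last 10 bases of 18S, so that the last 20 bases named 18S already had ratios within the range of ITS1. The level fell over the same bins, from 299422 to 33226 reads in the Ku80 library and from 154542 to 5209 in the vector library.

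At the other end of ITS1 the step was small. The ratio was 4.26 over the last 10 bins of ITS1 and 3.48 over the first 10 bins of 5.8S, while the level inside the spacer was 1.88% of that of 5.8S in the Ku80 library and 1.53% in the vector library. The last bin of ITS1, with its ratio of 2.56, was below both its spacer neighbour at 5.03 (4.76 to 5.32) and the first bin of 5.8S at 3.27 (3.24 to 3.31). These intervals do not overlap. ITS1 was thus unlike at its ends, with a ratio of 9.21 beside 18S and 4.26 beside 5.8S. The value of 4.26, and with it the small step, includes the last bin of ITS1 and was not repeated without it.

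**Figure D4:**
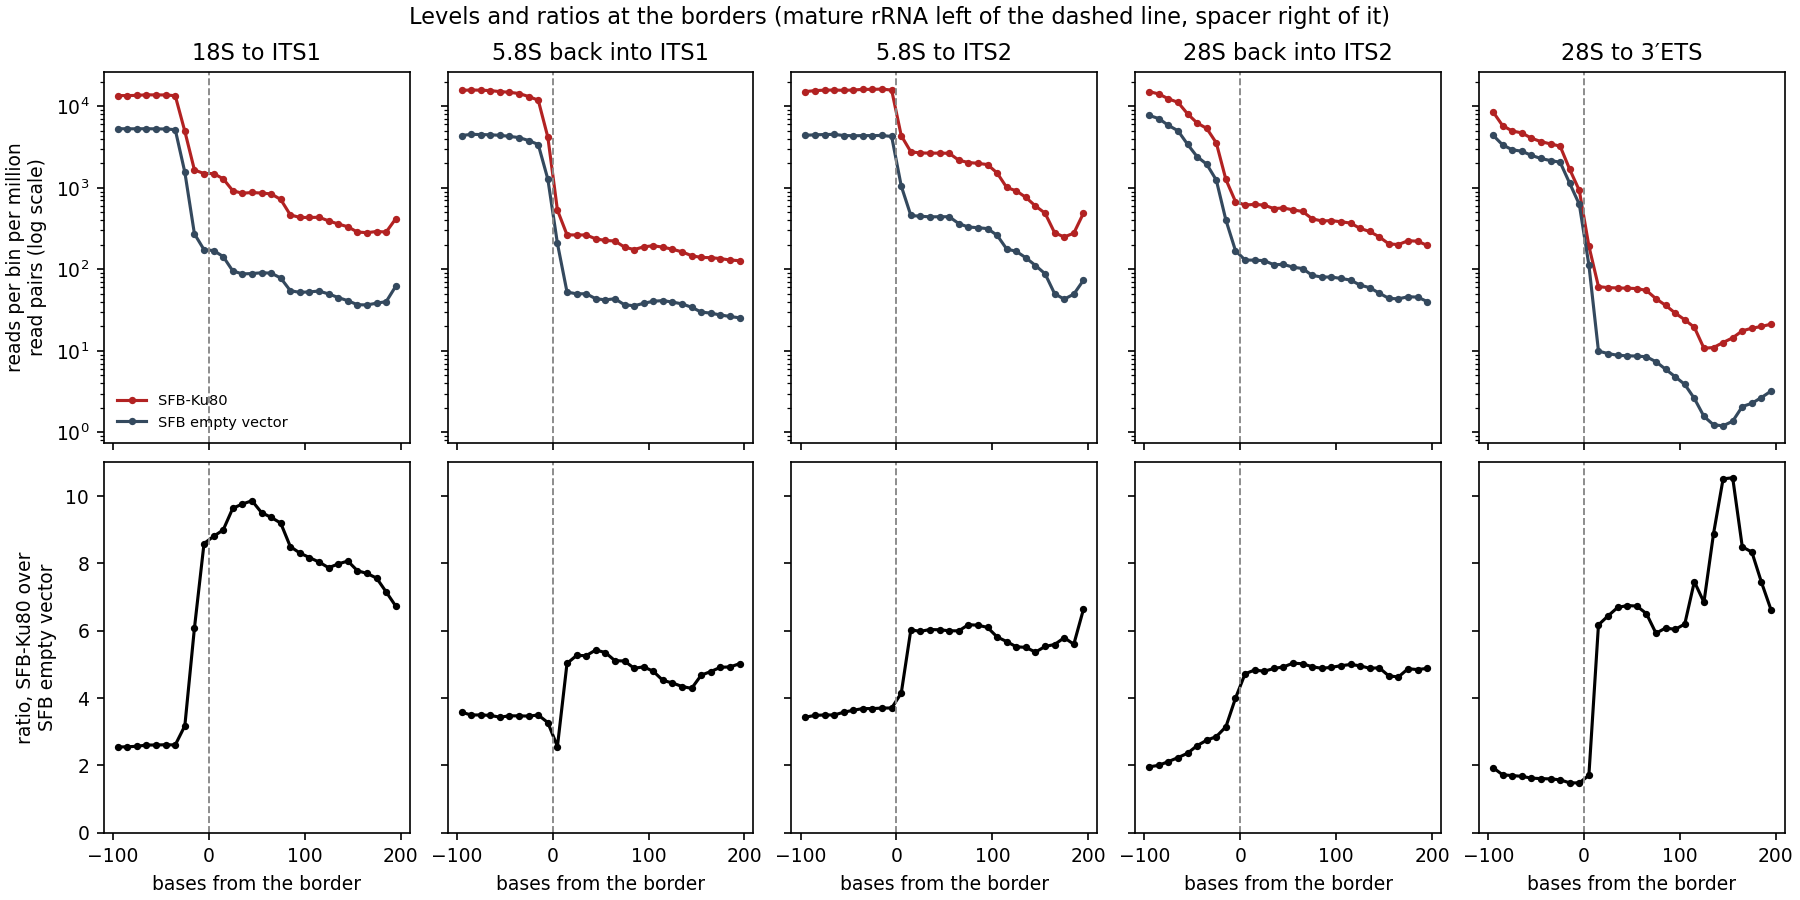
Reads per 10-base bin, scaled to 1000000 read pairs (upper row, log scale), and ratio of the Ku80 library to the vector library (lower row) from 100 bases inside mature rRNA to 200 bases inside the spacer, at 5 borders marked by dashed lines, with the Ku80 library in red and the vector library in blue-grey. The ratio steps from 2.66 to 9.21 between the means of 10 bins on either side of the border of 18S and ITS1. By the same means the steps at the other borders are smaller, with the first bin of the 3′ETS, at 1.71, included.

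From 5.8S into ITS2 the signal fell off slowly. Over the first 100 bases of ITS2 the mean level was 16.4% of that of 5.8S in the Ku80 library and 10.5% in the vector library, and it first fell under 10% of the level in 5.8S 100 bases into ITS2 in the Ku80 library and 60 bases in the vector library. The ratio was 3.59 on the 5.8S side and 5.62 on the ITS2 side. It was 4.15 in the first bin of ITS2 and 6.03 (5.92 to 6.14) in the second. Of all the spacer bins, the first of ITS2 had the most reads in both libraries, 96946 and 31483.

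Toward 28S, the last 10 bins of ITS2 had 6.70% of the level of the first 10 bins of 28S in the Ku80 library and 3.04% in the vector library, with ratios of 4.89 in ITS2 and 2.21 in 28S. Here too the border in the ratio was gradual on the mature side, as the first bin of 28S still had 4.00 (3.87 to 4.13). From 28S into the 3′ETS the level fell more sharply, to 1.59% in the Ku80 library and 0.762% in the vector library, and the ratio went from 1.69 to 3.53, or to 6.18 (5.44 to 7.03) in the second bin of the 3′ETS. The first bin of the 3′ETS, at 1.71, was close to the last bin of 28S, at 1.48 (1.45 to 1.51).

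Past the end of the 3′ETS the signal fell within 10 bases to few or no reads per bin in both libraries. The last bin of the 3′ETS had 216 reads in the Ku80 library and 34 in the vector library, the first bin of the intergenic spacer had 52 and 3, and each of the next 9 bins had 4 in the Ku80 library and none in the vector library. A count of 0 allows up to 3 reads in a bin, and a count of 4 has a counting error of its own. No difference between the libraries is therefore shown in these 9 bins, which as neighbours are not separate observations.

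The shapes of both libraries were alike over the bins of each spacer apart from these shifts. The numbers of bins above the mean, and of bins with 50% of the signal, differed more in the 3′ETS. Over the bins of ITS1, the correlation of the log2 counts of both libraries was 0.97 (Pearson, 108 bins), over ITS2 0.99 (117 bins) and over the 3′ETS 0.97 (37 bins). By rank it was 0.975, 0.994 and 0.990 (Spearman). These are descriptions, since neighbouring bins share reads and both libraries share the sequence that reads were aligned to. Of the bins above the mean of their own spacer, 42 were shared in ITS1, which is 89.4% of those of the Ku80 library and 97.7% of those of the vector library. In ITS2 30 were shared, or 93.8% and 90.9%. In the 3′ETS 7 were shared, which is 46.7% of the 15 of the Ku80 library and 100% of the 7 of the vector library. There the strongest bins, with 50% of the signal, numbered 11 of 37 in the Ku80 library and 5 in the vector library. Both sets of numbers for the 3′ETS include its first bin and were not repeated without it. That bin held 3384 of the 8786 summed counts of the 3′ETS in the vector library and 4287 of 31745 in the Ku80 library. The lowest bins of ITS1 and ITS2 were the same in both libraries, as were their highest bins away from the ends.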

How the data were processed

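The authors aligned the reads by BLAST to an rDNA repeat and deposited a count of reads for each 10-base bin, not scaled for library size. The BLAST version, its limits and the rDNA sequence are not given in the sources used here, and no spacer sequence was used here. The number of read pairs was summed from the gene counts that the authors deposited from STAR 2.7.6a on the CHM13 human genome, with the totals of unmapped, multimapping and unassigned pairs included. The deposited counts from featureCounts 2.0.2 do not resolve positions within pre-rRNA and were not used.

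Bin counts were divided by read pairs, in Python 3.11.15 with numpy 2.4.6, pandas 2.3.3 and scipy 1.17.1, and SFB-Ku80 was compared with SFB empty vector as a ratio. Apart from the rules for low counts that follow, no pseudocount was added and no bin was filtered out. A bin with 0 counts in SFB empty vector was set against 3 counts. A bin with at most 3 counts in both libraries got no ratio and was not called. Named bins are the first and last of each spacer, the highest, the lowest, those with extreme ratios among bins with at least 100 counts over both libraries, and their mature neighbours. Spacers, bins and windows were chosen with earlier results of these data known. Ratios and intervals were tested on simulated data with independent counts in each bin. That test therefore does not cover reads shared by bins, both reads of a pair or reads copied by PCR.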

Additional observations from a re-analysis of the deposited data

How the results depend on the processing

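The ratio stayed above 1 for all 3 spacers under every setting, and its size followed the denominator, which multiplies every ratio alike. With the summed signal of the rDNA repeat as denominator the ratios were 3.13 for ITS1, 2.53 for ITS2 and 2.13 for the 3′ETS. Mapped read pairs gave 10.6, 8.60 and 7.22, and the signal over 28S gave 3.91, 3.16 and 2.65. The median over bins gave 6.86, 5.76 and 6.82, and leaving out the highest bin of each library gave 7.28, 5.91 and 6.85. With 150 bases at either end left out, ITS2 had 6.04 and the 3′ETS 7.39, and ITS1 stayed at 7.19. The number of spacer bins at least 2-fold higher went from 261 to 253, 262 and 260 under these denominators. It was 238 of the 239 bins with at least 100 counts in each library, and 172 of the 172 bins left without the ends. The share over all bins of the repeat is given only per read pair, so these counts have no background under the same settings. Among 46 single values for parts of spacers, border sides and named bins, 4 were under 1 against the summed rDNA signal and 3 against 28S. They were the first bin of the 3′ETS, with 0.746 and 0.930, the last bin of 28S beside it, with 0.648 and 0.809, the side of 28S facing the 3′ETS, with 0.740 and 0.923, and the side of 28S facing ITS2, with 0.968 against the summed rDNA signal only. No paired analysis was possible because there is a single library of either kind, so no replicate could be left out. Depth limits the ratios in the troughs, where the vector library had as few as 18 reads in a bin.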

Other observations

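Of the 706 bins named as mature rRNA, 5 had ratios above 4.29. That is the lowest ratio in ITS1 and ITS2 when the first and last bin of each are left out. Apart from the last 2 bins of 18S, these included the first bin of 18S beside the 5′ETS, at 4.57, with 24191 reads in the Ku80 library and 7128 in the vector library. In 28S they were the bins at bases 8511 to 8520 and 8521 to 8530, at 4.97 and 5.00. These had 325 and 903 reads in the Ku80 library and 88 and 243 in the vector library, few beside the median bin of 28S with 119078 and 88152.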
